A study of Mus musculus with 4 samples.

Results

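The genes of the transforming growth factor beta (TGF-beta) superfamily were examined in whole colon of mice given a colitis-inducing agent. Genes were taken by name from the array's probe list, namely the Tgfb, Tgfbr, Bmp, Bmpr, Gdf, Smad, Grem, Acvr and inhibin or activin (Inh) genes together with Nog, Chrdl1 and Fst. This gave 56 genes with 96 probes out of 37074 gene names on the array, and 46 of the 56 passed the filter on dim probes and were tested. All mice were C57BL/6, carried floxed Junb alleles (Junb fl/fl), and had received DSS (dextran sulphate sodium), an agent that damages the colon epithelium, with tissue taken on day 5. The 2 control samples came from mice without Cre, and the 2 mutant samples from mice that also carried Cd4-Cre, which removes the floxed Junb gene, encoding an AP-1 transcription factor, in cells of the T cell lineage only, while other cells of the colon keep it. The mice's age is not given in the sources used here, and no mice without DSS were among the samples. The study asked how the colon transcriptome of the mutants differs under DSS.

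Ligands of the superfamily are secreted dimers that bind a pair of type I and a pair of type II receptor kinases. TGF-beta and activin receptors phosphorylate Smad2 and Smad3, BMP receptors phosphorylate Smad1, Smad5 and Smad9, and both kinds of Smad enter the nucleus with Smad4. Smad6 and Smad7 block the receptors, and secreted antagonists such as gremlin 1, noggin, chordin-like proteins and follistatin hold ligands away from them. In the colon, BMP signalling is known to be low at the crypt base, where cells beneath it secrete antagonists, and high towards the surface, and TGF-beta is known for restraining T cells and for wound matrix.

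Promoters of some of the genes that the results turn on are shown first, taken from the RefSeq promoter table. That a gene is not shown does not mean that it lacked an entry there. Of the 56 genes, 38 had an entry. Gdf10, Tgfb2 and Smad6 are printed from 5′ to 3′ on build GRCm38.p6 (RefSeq), with matches to the searched motifs in capitals. Each covers the 250 bases before the transcription start, and that of Smad6 runs 4 bases past it. Gdf10 lies at chr14:33923337-33923586 on the plus strand, Tgfb2 at chr1:186705990-186706239 on the minus strand and Smad6 at chr9:64022056-64022309 on the minus strand.
Gdf10: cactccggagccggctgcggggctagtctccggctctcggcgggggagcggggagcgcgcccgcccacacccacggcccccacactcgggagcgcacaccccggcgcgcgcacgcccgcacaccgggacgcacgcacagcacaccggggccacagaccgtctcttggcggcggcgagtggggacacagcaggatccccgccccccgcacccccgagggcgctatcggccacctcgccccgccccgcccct
Tgfb2: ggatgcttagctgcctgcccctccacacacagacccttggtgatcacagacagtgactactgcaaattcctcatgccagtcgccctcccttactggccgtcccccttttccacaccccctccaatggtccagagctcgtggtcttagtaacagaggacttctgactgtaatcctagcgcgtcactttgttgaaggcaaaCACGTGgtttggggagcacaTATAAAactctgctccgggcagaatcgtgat
Smad6: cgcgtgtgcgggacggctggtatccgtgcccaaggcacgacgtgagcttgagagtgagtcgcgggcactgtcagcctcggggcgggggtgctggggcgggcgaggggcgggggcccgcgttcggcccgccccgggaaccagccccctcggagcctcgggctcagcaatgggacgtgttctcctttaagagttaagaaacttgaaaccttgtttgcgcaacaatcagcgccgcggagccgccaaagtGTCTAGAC
The Gdf10 window was 78.8% G or C, that of Smad6 66.5% and that of Tgfb2 53.6%, against a median of 52.4% over the upstream windows of all promoters in the table. Of 5 motifs searched on both strands, the Smad6 window held the Smad palindrome GTCTAGAC, from base -4 to base 4 counted from the start with no base 0. It occurred in 70 of 32851 promoters (0.213%) in the whole table, each 300 bases long. The Tgfb2 window held the E-box CACGTG from base -51 to base -46 and TATAAA, the TATA box, from base -31 to base -26. The E-box was found in 7.15% of all promoters and in those of Acvr1b, Bmp4, Bmp6 and Gdf15 besides Tgfb2, and TATAAA in 13.616% of all. The AP-1 site TGAGTCA, present in 5.202% of all promoters, and the related site TGACGTCA, in 1.79%, had no match in the 46 promoter entries of the 38 genes. A match describes letters in a window and is not evidence of binding. The motifs were chosen after the promoters had been seen, so the rarity of a motif gives no weight to its match here.

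Each difference is the mutant mean minus the control mean of log2 signal, given with the moderated standard error (SE) of limma and n = 2 and 2 arrays. Levels are log2 signal relative to the array's 75th percentile, so a level below 0 lies under that percentile, and levels of different genes are not compared. The RNA came from every cell type of the tissue, so that fewer cells of a type and less RNA per cell cannot be told apart. Between 27939 and 29093 of 56605 probes were well above background on an array, no spot was saturated, and Pearson's r between arrays was 0.976 to 0.984 over 19325 tested genes and 0.963 to 0.983 over the 46 family genes. Xist, transcribed from the inactive X chromosome, was well above background on replicate 1 of both genotypes and the Y-linked Eif2s3y on replicate 2 of both, so each genotype had an array of each kind. Junb itself, measured in the whole tissue, had levels of 4.23 and 4.39 on the control arrays and 4.44 and 4.47 on the mutant arrays.

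The genes called lower in the mutants encode ligands and BMP antagonists and those called higher encode Smads, but several roles held genes of both directions. The 9 BMP ligands tested had 3 above 0 and 6 below, and the 4 receptor Smads had 2 above and 2 below. At an unadjusted p under 0.05, 8 of the 46 genes (17.4%) were called, against 9.29% of all 19325 genes. Of these, 6 were lower in the mutants, which is 13% of the family against 3.98% of all genes. The other 2 were higher (4.35% of the family, against 5.31% of all genes). Among the lower calls were Gdf10, Tgfb2, Tgfb3, Chrdl1 and Bmp2, and the higher ones were Smad4 and Smad6. With Benjamini-Hochberg adjustment over all genes, limma called 0 of the 46 and 0 of the 19325 genes, and the smallest adjusted p was 0.418 in the family and 0.373 over all genes. The split of the calls depended on how arrays were scaled. Scaling by the median gave 4 higher and 3 lower, with 5.2% and 2.13% of all genes. The 4 higher were then Smad4, Smad6, Fst and Inhba, so they were not Smads only. Quantile normalization gave 1 higher and 6 lower, with 4.33% and 4.51% of all genes. Calls below that are not said to be adjusted use this unadjusted threshold, so none of them is past the adjusted one. Where values without an array are given, the arm left with 1 array is assumed to vary like the other genotype, whose 2 arrays alone supply the spread.

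**Figure D1:**
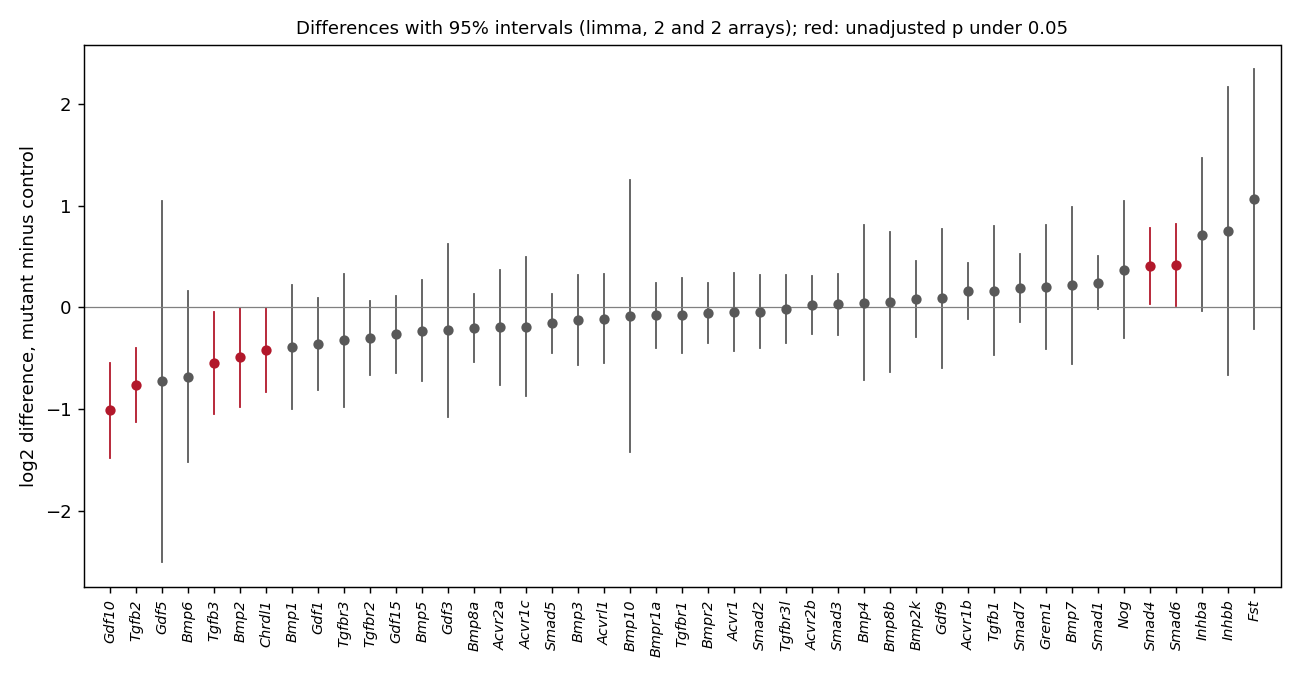
Log2 difference between mutant and control for 45 of the 46 tested genes, ordered by size, with its 95% interval from limma (2 and 2 arrays). The 7 genes in red passed an unadjusted p of 0.05, with Gdf10 at -1.01 the lowest, while Fst at 1.06 had the highest value and an interval that spans 0.

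Over the 46 genes the median difference was -0.08, with 18 above 0 and 28 below. Over all tested genes it was 0.02, with 10310 above 0 and 9015 below. The median size of the difference was 0.21 in the family and 0.17 over all genes. The mutant arrays both lay above both controls for 9 family genes (19.6%, against 25.7% of all genes) and below them for 12 (26.1%, against 17.6%). In all, 21 of 46 genes (45.7%) had groups that did not overlap, close to the 43.2% of all genes. A difference of at least 2-fold with an unadjusted p under 0.05 was found for 1 gene, Gdf10 (2.17%, against 1.36%).

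**Figure D2:**
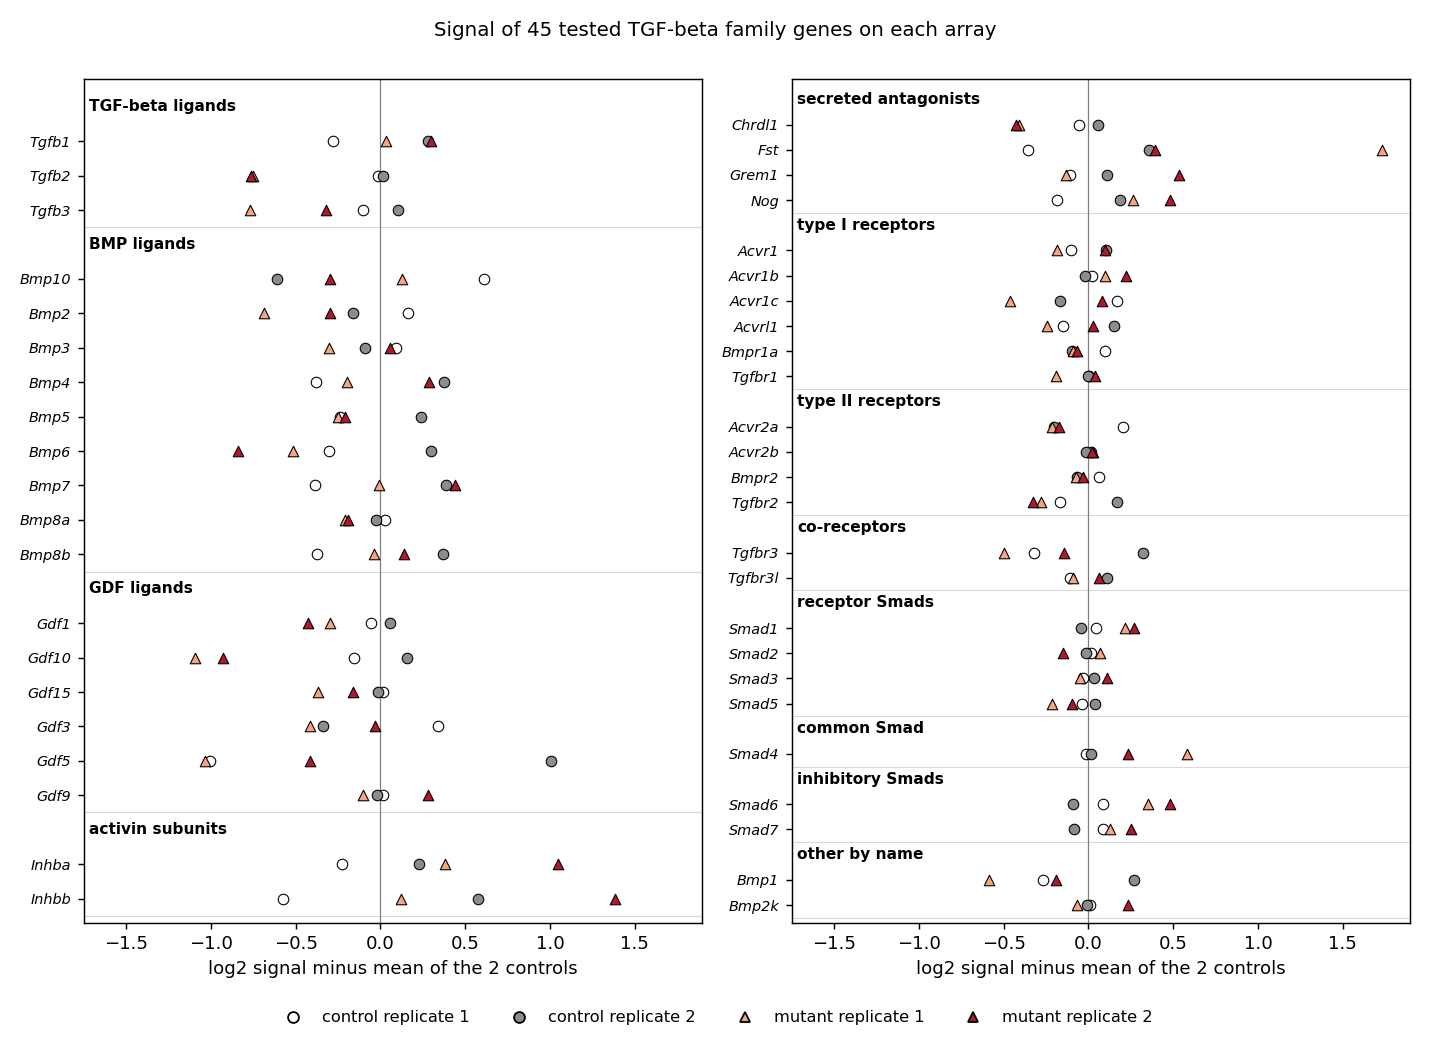
Log2 signal of 45 of the 46 tested genes on each of the 4 arrays, minus the mean of the controls, by role in the pathway. Circles are controls and triangles mutants, with the lighter mark for replicate 1. The triangles of Tgfb2 and Gdf10 lie left of both circles, and those of Inhbb are spread as widely as its controls.

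Among the TGF-beta ligands, Tgfb2 and Tgfb3 passed the unadjusted threshold and Tgfb1 did not. Tgfb2, an isoform that needs the co-receptor Tgfbr3 for strong receptor binding, had levels of -0.48 and -0.45 in the control samples against -1.21 and -1.23 in the mutant samples. Both mutants lay below both controls, and replicates differed far less than genotypes. The difference was -0.76 (SE 0.14, adjusted p = 0.418), or 1.69-fold lower. Its probe lies at chr1:188449333-188449392 on mm9, and a second probe at chr1:188447534-188447593 gave -0.58, again with no overlap.

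Tgfb3, an isoform known from wound healing and palate fusion, had 0.24 and 0.44 on the control arrays and -0.43 and 0.02 on the mutant arrays (chr12:87397804-87397863, mm9). Mutant replicate 1 was the lowest array and the groups did not overlap. The difference was -0.55 (SE 0.20, adjusted p = 0.513). It was -0.32 without mutant replicate 1, no longer past the unadjusted threshold, and the call was also lost without either control and under median scaling or without the intensity trend. Tgfb1, the main immune isoform, which T cells and macrophages also make, had -1.77 and -1.21 in the control samples against -1.46 and -1.19 in the mutant samples. The groups overlapped, and the difference was 0.17 (SE 0.25, adjusted p = 0.858). Its 95% interval ran from -0.47 to 0.80.

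Of the 6 tested growth differentiation factors (GDFs), Gdf10 had the greatest difference. Gdf10, also called BMP3b and a close relative of Bmp3, had -0.62 and -0.31 on the control arrays and -1.56 and -1.39 on the mutant arrays (chr14:34748409-34748468, mm9). All 4 arrays were above background and the genotypes lay well apart. The difference was -1.01 (SE 0.18, adjusted p = 0.418), or 2.01-fold lower. Gdf15, a stress-induced cytokine of epithelium and macrophages, had -0.37 and -0.40 in the control samples against -0.75 and -0.55 in the mutant samples, a difference of -0.26 (SE 0.15, adjusted p = 0.624). Its groups did not overlap, and it did not pass the unadjusted threshold. Of the other 4 GDFs tested, 3 lay below 0 and 1 above, and the 6 together ranged from -1.01 to 0.09 with a median of -0.31.

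Of the 9 tested BMP ligands, 1 passed the unadjusted threshold. Bmp2, a ligand made by surface epithelium and by muscle macrophages of the gut, had 2.04 and 1.72 on the control arrays and 1.20 and 1.59 on the mutant arrays (chr2:133388260-133388319, mm9). Control replicate 1 was the highest and mutant replicate 1 the lowest array, with mutant replicate 2 only just below control replicate 2. The difference was -0.49 (SE 0.19, adjusted p = 0.533). It was -0.84 between the replicates numbered 1 and -0.14 between those numbered 2. Without mutant replicate 1 it was -0.30 and without control replicate 1 it was -0.33, and neither passed the unadjusted threshold. The call was lost in 5 of 12 alternatives in all.

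Bmp4, which mesenchymal cells secrete next to crypts, had 1.76 and 2.51 in the control samples against 1.94 and 2.42 in the mutant samples, and the mutants lay between the controls. The difference was 0.05 (SE 0.30, adjusted p = 0.968), and a second probe gave -0.05. Bmp7 had 0.42 and 1.19 on the control arrays and 0.80 and 1.25 on the mutant arrays, with overlap and a difference of 0.22 (SE 0.30, adjusted p = 0.842). Bmp5, a mesenchymal ligand of the gut, had -0.08 and 0.40 in the control samples against -0.09 and -0.05 in the mutant samples. Here control replicate 2 stood above the 3 other arrays, and the difference was -0.23 (SE 0.19, adjusted p = 0.727).
Bmp6, known for its part in iron sensing in liver endothelium, was dim, with -3.18 and -2.57 on the control arrays and -3.39 and -3.72 on the mutant arrays. Its groups did not overlap, the difference was -0.68 (SE 0.33, adjusted p = 0.592), and it was -0.13 after normexp background correction. The other 4 BMP genes tested differed by between -0.20 and 0.05, with groups that overlapped for all except Bmp8a. Of these, Bmp10 was above background on 2 arrays only. Bmp1, a procollagen protease, and Bmp2k, a kinase, are not ligands and share the name only, and they differed by -0.39 (SE 0.24) and 0.08 (SE 0.15) with groups that overlapped.

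The activin subunits and their antagonist follistatin were higher on average in the mutants. In the main fit none of the 3 passed the unadjusted threshold. Inhba and Fst passed it under median scaling, and Inhba and Inhbb in the fit with a replicate block, described below. Inhba encodes the activin A subunit, known as an injury-induced cytokine, and had -1.90 and -1.45 in the control samples against -1.29 and -0.63 in the mutant samples (chr13:16118634-16118693, mm9). Mutant replicate 2 was the highest array and the groups did not overlap. The difference was 0.71 (SE 0.29, adjusted p = 0.551), and it was 0.61 between the replicates numbered 1 and 0.82 between those numbered 2. It was 0.38 without mutant replicate 2 and 1.05 without mutant replicate 1, with the spread of the controls only.
Inhbb, the activin B subunit, had -1.83 and -0.68 on the control arrays and -1.13 and 0.13 on the mutant arrays. In both genotypes replicate 2 was higher than replicate 1 by more than the genotypes differed, and the groups overlapped. The difference was 0.75 (SE 0.55, adjusted p = 0.687), and it was 0.70 between the replicates numbered 1 and 0.81 between those numbered 2. It was 0.12 without mutant replicate 2 and 1.38 without mutant replicate 1.

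Fst, follistatin, which binds and neutralises activins, had -2.45 and -1.73 in the control samples against -0.36 and -1.70 in the mutant samples. A single array, mutant replicate 1, carried the difference, since mutant replicate 2 was level with control replicate 2. The difference was 1.06 (SE 0.50, adjusted p = 0.586). It was 0.39 without mutant replicate 1 and 1.73 without mutant replicate 2, where the mutants are the 1 array that stands apart and the controls alone supply the spread. The other inhibin and activin subunits, Inha, Inhbc and Inhbe, were above background on no array.

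Of the BMP antagonists described here, Chrdl1 passed the unadjusted threshold and Grem1 and Nog did not. Chrdl1, chordin-like 1, had -1.25 and -1.13 in the control samples against -1.60 and -1.62 in the mutant samples (chrX:139732391-139732449, mm9), a difference of -0.42 (SE 0.16, adjusted p = 0.529). Its other probes gave -0.68 and -0.78, each with no overlap, while the call on the probe used was lost in 9 of 12 alternatives.

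Grem1, the gremlin of the stem cell niche, had 3.25 and 3.47 on the control arrays and 3.23 and 3.90 on the mutant arrays. Mutant replicate 2 was the highest array, mutant replicate 1 the lowest, and the difference was 0.20 (SE 0.24, adjusted p = 0.813). It was -0.13 without mutant replicate 2 and 0.53 without mutant replicate 1. Nog, noggin, was dim, with -3.21 and -2.83 in the control samples against -2.76 and -2.54 in the mutant samples, a difference of 0.37 (SE 0.26, adjusted p = 0.675).

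**Figure D3:**
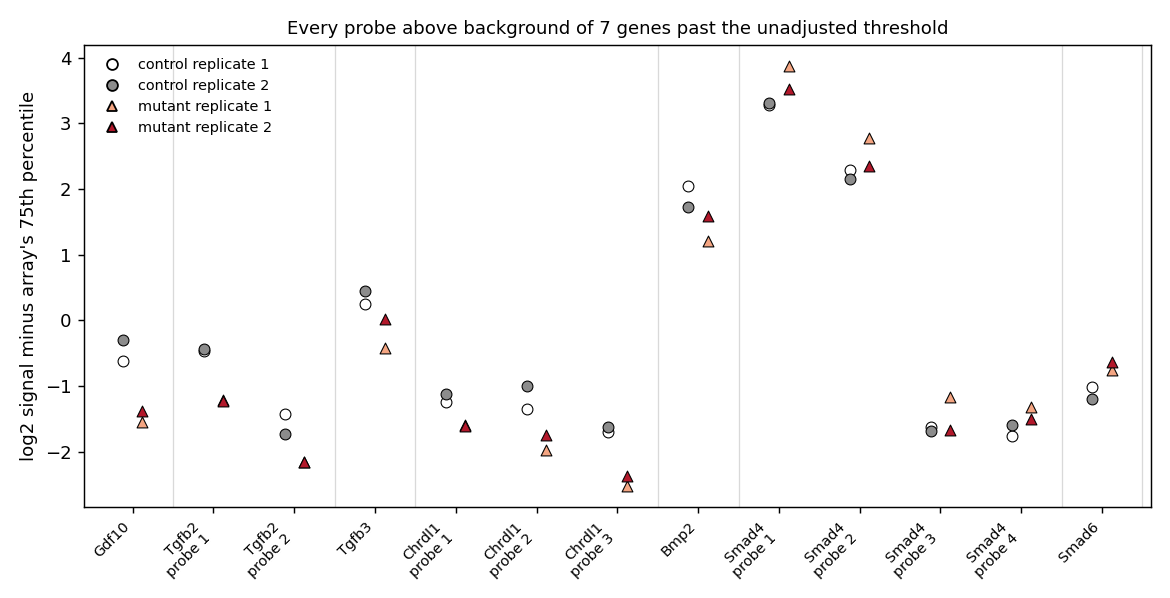
Log2 signal of every probe above background for 7 of the 8 genes past the unadjusted threshold, relative to each array's 75th percentile, with controls as circles and mutants as triangles. The probes of Tgfb2 and Chrdl1 lie lower in both mutants, and in 3 of the 4 Smad4 probes both mutants lie above both controls.

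No receptor passed the unadjusted threshold. The 12 type I, type II and co-receptor genes tested had 2 above 0 and 10 below. Tgfbr2, the type II receptor that binds TGF-beta ligands first, had 3.39 and 3.72 on the control arrays and 3.28 and 3.23 on the mutant arrays. Its groups did not overlap and the difference was -0.30 (SE 0.14, adjusted p = 0.586). It was -0.37 under quantile normalization, past the unadjusted threshold. Without control replicate 1 it was -0.47, and without control replicate 2 it was -0.14. Tgfbr1, its type I partner, had -0.09 and -0.10 in the control samples against -0.29 and -0.06 in the mutant samples, a difference of -0.08 (SE 0.15) that was 0.0047 under median scaling.

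Tgfbr3, the co-receptor betaglycan that presents TGF-beta2 to the other receptors, had 0.77 and 1.41 on the control arrays and 0.59 and 0.94 on the mutant arrays. The groups overlapped and the difference was -0.32 (SE 0.26), with -0.65 without control replicate 1 and 0.0013 without control replicate 2. Of the BMP receptors, Bmpr1a had 1.29 and 1.10 in the control samples against 1.10 and 1.13 in the mutant samples, and Bmpr2 had 1.43 and 1.30 against 1.29 and 1.33. Their differences of -0.08 (SE 0.13) and -0.05 (SE 0.12) lay within the spread of the controls and turned above 0 under median scaling. Acvrl1, the endothelial receptor ALK1, had 0.39 and 0.69 on the control arrays and 0.29 and 0.57 on the mutant arrays, a difference of -0.11 (SE 0.17). The remaining receptors differed by -0.20 to 0.16.

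The Smads had both higher calls. Smad4, the common partner of all receptor Smads, had 3.28 and 3.31 in the control samples against 3.88 and 3.53 in the mutant samples. Mutant replicate 1 was the highest array, and the groups did not overlap. The difference was 0.41 (SE 0.15, adjusted p = 0.515). Its 3 other probes gave 0.35, 0.27 and 0.24. Without mutant replicate 1 the difference was 0.23, and the call was lost in 7 of 12 alternatives.

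Smad6, the inhibitor that acts mainly on BMP receptors and is itself a known BMP target, had -1.02 and -1.20 on the control arrays and -0.76 and -0.63 on the mutant arrays (chr9:63801378-63801437, mm9). Both mutants were above both controls. The difference was 0.41 (SE 0.16, adjusted p = 0.529), and it stayed between 0.33 and 0.50 in all 12 alternatives while the call was lost in 6. Smad7, the inhibitor of TGF-beta receptors, had 0.90 and 0.73 in the control samples against 0.94 and 1.07 in the mutant samples, a difference of 0.19 (SE 0.13, adjusted p = 0.672) that its second probe did not share (-0.13). Among the 4 receptor Smads tested none passed, and Smad3, which mediates TGF-beta and activin signals, had 2.06 and 2.12 against 2.04 and 2.20, a difference of 0.03 (SE 0.12). The receptor Smads ranged from -0.16 to 0.24.

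The 10 genes left untested were Bmp15, Bmpr1b, Gdf2, Gdf6, Gdf7, Gdf11, Inha, Inhbc, Inhbe and Smad9. The first 9 were well above background on no array, and Smad9 on control replicate 2 alone, so it has no fold here. Of the 21 tested genes with more than 1 probe above background, the probes of 9 differed in sign. Of the called genes, only Tgfb2, Chrdl1 and Smad4 had more than 1 probe above background, and the probes of each shared a sign. The other called genes had 1 such probe each, so no disagreement could be seen.

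The other genes of the pathway were read against the same background, 5.31% of all genes called higher and 3.98% lower. Of 40 extracellular regulators, which store, release or bind the ligands, 32 were tested, 1 was called higher and 3 lower, and their median was -0.06. Ltbp4, a latent TGF-beta binding protein of elastic fibres, had 2.87 and 3.04 on the control arrays and 2.48 and 2.44 on the mutant arrays, a difference of -0.50 (SE 0.11). Ltbp2, a related matrix protein, differed by -0.54 (SE 0.21), and Rgma, a BMP co-receptor, by -0.36 (SE 0.11). Lrg1, a secreted glycoprotein that modulates endothelial TGF-beta signalling and also an acute phase protein, had 1.83 and 1.53 in the control samples against 3.74 and 2.35 in the mutant samples, a difference of 1.36 (SE 0.45). For all 4, both mutants lay on the same side of both controls. None of the 27 intracellular regulators tested (of 27) was called, and their median was -0.01, with Fkbp1a, which binds type I receptors, at 0.18 (SE 0.11) and Skil, a Smad repressor, at 0.19 (SE 0.13). The ubiquitin ligase Wwp1 had -0.19 (SE 0.12) and Tgfbrap1 -0.15 (SE 0.11).

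Of 17 genes that TGF-beta is known to induce in some cells, 16 were tested, 7 lay above 0 and 9 below, and 2 were called lower. Postn, the matrix protein periostin, had 2.17 and 1.79 on the control arrays and 1.51 and 1.20 on the mutant arrays, a difference of -0.63 (SE 0.19). Itgae, the integrin chain CD103 of intraepithelial T cells, differed by -0.52 (SE 0.19), and the part of T cell content in this value was not tested. Cdkn2b, a cell cycle inhibitor, differed by -0.29 (SE 0.16) and the transcription factor Bhlhe40 by -0.20 (SE 0.11), neither of them called. Of 8 BMP targets, 6 were tested, 4 lay above 0, and the median was 0.22. Id3, an inhibitor of bHLH transcription factors and a target of BMP Smads, had 1.80 and 1.88 in the control samples against 2.26 and 2.28 in the mutant samples, a difference of 0.43 (SE 0.11). Its relative Id4 went the other way, with -0.75 and -0.77 against -1.39 and -1.30, a difference of -0.59 (SE 0.15). Id1 had 4.14 and 3.55 on the control arrays and 4.79 and 4.12 on the mutant arrays, which overlapped, with a difference of 0.61 (SE 0.30). Atoh8, near the limit of detection, had 0.41 (SE 0.30). The smallest adjusted p among these 4 lists was 0.418.

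**Figure D4:**
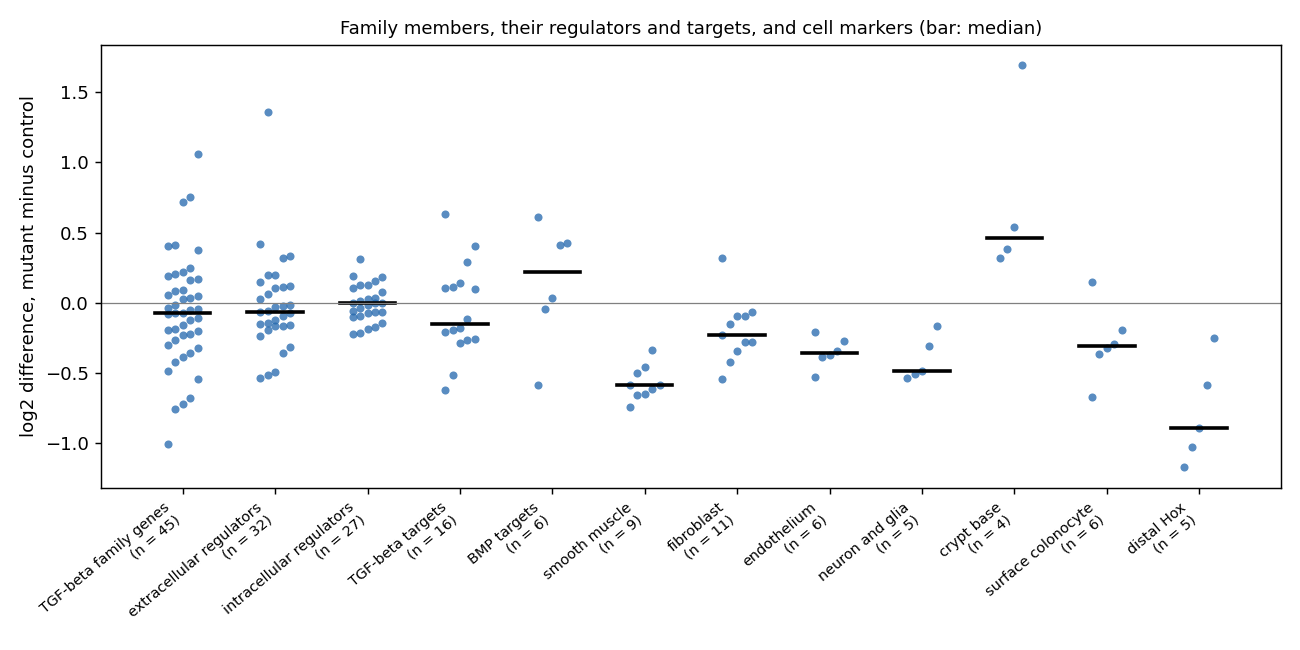
Log2 difference between mutant and control for the family (45 of its 46 tested genes), its regulators and targets, and markers of cell types and of colon position. Each point is a gene and each bar a list's median. All 9 smooth muscle markers lie below 0, with a median of -0.59. The 5 distal Hox genes have a median of -0.89, the value of Hoxd12, which was above background on 1 control and 1 mutant array only.

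Markers of other cell types differed on the same arrays, where 5.31% of all genes were called higher and 3.98% lower. All 9 smooth muscle markers were lower in both mutants than in both controls, 8 were called, and their summed signal relative to the 75th percentile was 388.6 and 425.1 in the control samples against 297.8 and 286.9 in the mutant samples. Myh11, smooth muscle myosin, differed by -0.61 (SE 0.12). Of 11 fibroblast markers, 10 lay below 0 with 1 called, and their summed signal was 98.5 and 154.2 on the control arrays and 97.93 and 125.5 on the mutant arrays. All 6 endothelial markers were below 0 with none called (median -0.36), and all 5 neuron and glia markers were below 0 with 2 called (median -0.49). Other lists moved as much or more. The 4 adipocyte markers tested had a median of -1.39 with 3 called lower, while Lep was higher without overlap (0.30). Of these, Adipoq was above background on 1 mutant array only. The 5 enteroendocrine markers had a median of -1.09 with 5 called lower, and the 3 red cell markers -1.24 with 2 called lower. The 3 mesothelium markers had a median of -0.54, all lower without overlap. Of the 4 neutrophil markers tested, 2 lay above 0, both called, and 2 below. S100a8 and S100a9 differed by 2.24 each, while Ly6g had -0.14 and Csf3r -0.015, both with overlap. The medians of the subepithelial fibroblast, macrophage, B cell and goblet cell lists lay between -0.24 and 0.06. Each of these lists held 1 call, higher for the macrophage list and lower for the others. The part of these cells in the values of Tgfb2, Tgfb3, Gdf10, Chrdl1 and the other family genes, or of the regulators and targets, was not tested.

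Every epithelial marker was above background, with a median of 0.09 over 5 genes. The 4 crypt base markers lay above 0 (median 0.46, 1 called), and 5 of 6 surface colonocyte markers below (median -0.31, 1 called). The surface marker Krt20 was higher without overlap (0.15). A link of these markers to the values of Bmp2, Smad6 and the Id genes was not tested. All 8 T cell markers were below 0 with 4 called, and 7 lay lower without overlap, against 17.6% of all genes. Cd8a differed by -1.81 (SE 0.31) and was above background on both control arrays and on neither mutant array. The summed signal of the 8 was 8.36 and 7.37 in the control samples against 6.11 and 6.03 in the mutant samples. Hox genes of the distal colon varied more between arrays than the lists given here. Their summed signal was 30.9 and 13.0 on the control arrays and 23.8 and 3.74 on the mutant arrays. Most of that sum was Hoxb13, with levels of 4.82 and 3.52 in the control samples against 4.43 and 1.56 in the mutant samples. The median difference of the list was -0.23 between the replicates numbered 1 and -1.96 between those numbered 2. On the same arrays Tgfb2 differed by -0.74 and -0.78, and Gdf10 by -0.94 and -1.08, for replicates 1 and 2. The part of tissue position in these values was not tested, and no label states that arrays of one number are pairs. Of 6 pancreatic markers, 5 were above background on no array.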

How the data were processed

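RNA from 4 samples of whole mouse colon was measured on Agilent one-colour arrays, all on 1 slide and in 1 scan. Per the file headers, the deposited values are spot intensity, background-corrected with Agilent Feature Extraction 11.5.1.1, which the submitters' processing notes also name. Spots were marked as well above background by deposited flags, per the file headers. Groups came from the titles and genotype labels. Nothing states that arrays of a group are separate experiments, so p-values measure only the spread between these samples.

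The log2 intensity minus the array's 75th percentile over non-control spots was used. Spots of a probe were averaged without outliers, and 11 probes with no clean spot on some array were dropped. A probe was kept when well above background on at least 2 arrays, and the brightest stood for its gene. All 19325 genes were fitted with limma 3.58.1 in R 4.3.3 (intensity trend, no block, two-sided) and p-values adjusted with Benjamini-Hochberg. Prior degrees of freedom were 3.12. An exact permutation test of 2 against 2 cannot go below p = 0.333. The number of arrays limits the precision.

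The family and all lists were chosen with earlier results of these data known, and the motifs after the promoters had been seen. Named with every array's value were genes central to the pathway, together with members at an unadjusted p under 0.05, or not overlapping and differing by at least 0.5. Of the family, 1 gene is counted and not reported here. Of regulator and target lists, up to 4 genes by smallest p were named. Genes carry the names given in the array files, and all 56 are RefSeq symbols. Probe positions are those of the files, on mm9, and without an annotation of that build no exon or UTR is given. The fit was also tested on simulated data. The differences added there were larger than any in the family, so the test does not show how well smaller ones are found. Alternatives were normexp background correction (offset 50), quantile normalization, median scaling, other filters, the mean of probes, no trend, a replicate block, and leaving out each array.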

Additional observations from a re-analysis of the deposited data

How the results depend on the processing

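Gdf10 (-1.17 to -0.71) and Tgfb2 (-0.78 to -0.57) passed the unadjusted threshold in all 12 alternatives. Tgfb3 and Bmp2 passed in 7, Smad6 in 6, Smad4 in 5 and Chrdl1 in 3. No family gene passed the adjusted threshold in any alternative. Over the family genes followed singly, 256 values kept their direction and side of the threshold, 32 lost the call, 15 gained it and 21 changed sign. The number of arrays and the signal of dim genes such as Bmp6 and Nog limit the precision, and the causes of the changes were not tested.

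Higher calls numbered 1 with normexp (5.05% of all genes), quantile normalization (4.33%), a filter on all 4 arrays (5.6%), the mean of probes (4.82%) or no trend (4.36%). They numbered 4 with median scaling (5.2%), which also gave 3 lower calls (2.13%). Differences of at least 2-fold numbered 0 with normexp (0.44% of all genes) and with quantile normalization (1.31%), and 2 without a filter (1.54%), where 20 of 56 genes lay lower without overlap, against 39.1% of all genes. Median scaling moved the median of all genes to 0.10, and there Bmpr1a had 0.0043, Bmpr2 0.028 and Tgfbr1 0.0047. Smad3 had -0.011 with quantile normalization, and with the mean of probes Bmp4 had -0.0015 and Bmpr1a 0.0027.

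Leaving out each array in turn left an arm of 1 array, assumed to vary like the other genotype. Higher calls then numbered 0 (without control replicate 1) to 3, against 2.61% to 6.3% of all genes. Lower calls numbered 3 (without mutant replicate 1) to 9 (without control replicate 1), against 1.86% to 4.92%, and differences of at least 2-fold 0 (without control replicate 2) to 2, against 1.76% to 2.59%. Groups that did not overlap numbered 10 to 17 higher (most without mutant replicate 1), against 35.1% to 41.9% of all genes, and 13 to 28 lower (most without mutant replicate 2), against 26.9% to 36.2%. Over all genes these shares were also above the 25.7% and 17.6% found with every array. The median difference ranged from -0.19 without mutant replicate 2 to 0.025 without mutant replicate 1. Changes of sign occurred for Acvrl1 (-0.26 to 0.040), Bmp4 (-0.33 to 0.42), Bmp5 (-0.47 to 0.0099), Bmp7 (-0.17 to 0.60), Bmpr1a (-0.18 to 0.020), Bmpr2 (-0.12 to 0.011), Grem1 (-0.13 to 0.53), Smad3 (-0.049 to 0.11), Tgfb1 (-0.11 to 0.44), Tgfbr1 (-0.19 to 0.039) and Tgfbr3 (-0.65 to 0.0013).

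With the replicate number as a block, 5 family genes were called higher and 8 lower at the unadjusted threshold, against 10.1% and 7.44% of all genes. Inhba (block SE 0.15, adjusted p = 0.145), Inhbb (block SE 0.14, adjusted p = 0.115) and Smad1 gained a higher call, and Bmp1 and Tgfbr3 a lower one. The smallest adjusted p in the family was 0.0894, while 46 genes of the whole array passed the adjusted threshold. Deviations from the group mean of same-numbered arrays correlated at 0.239 over 19325 genes. Arrays of one number also shared Xist or Eif2s3y signal. With 2 numbers only, and no label stating what they share, the numbers were not taken as pairs.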
